A study of Danio rerio with 9 samples.

Results

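Zebrafish embryos that came out of the same coal dust exposure small, with extruded yolks (P3), were compared with embryos that came out with deformed tails (P1). The groups were taken from the phenotype labels and made up 6 of the 9 libraries of the study, 3 in each. The study sequenced poly(A) RNA of whole embryos at 24 h post fertilisation and sorted exposed embryos by malformation before RNA was made. All embryos were of the wild-type TU strain, grown at 28 °C. P3 (n = 3) and P1 (n = 3) embryos had both been given a methanolic coal dust extract in dimethyl sulfoxide, at 100 mg/L and from 4 h post fertilisation. The control (n = 1) was a single pooled library of normal embryos of the same age, and the labels do not say whether it was given the solvent. A further malformation, P2 with deformed yolks (n = 2), entered only the filter on low counts, the scaling and the estimate of spread. RNA came from 50 embryos per phenotype group, and nothing in the labels ties the replicates to separate clutches or exposures, so the p-values reflect just the spread among these libraries, which may be technical. Since both groups were exposed, the comparison asks how these outcomes differ, not what the extract does. Body size and yolk shape are not read out by RNA counts, so these parts of the labels were not checked.

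At this age an embryo lives on its yolk. The yolk syncytial layer, a skin of nuclei around the yolk, breaks down yolk lipid, packs it into lipoproteins and secretes plasma proteins before the liver does so. The tail still grows from the tailbud, where presomitic mesoderm is laid down, and its fin fold is stiffened by actinotrichia, fibres of collagen and actinodin proteins. Coal dust extracts carry polycyclic aromatic hydrocarbons, ligands of the aryl hydrocarbon receptor (AHR), which switches on cytochrome P450 genes of the CYP1 family.

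Total gene counts were 15520740 to 20810487 in the P3 libraries, 14719252 to 17198110 in the P1 libraries and 12008832 in the control. Each P3 or P1 library had reads in 23457 to 24024 genes, and 3 counts were worth 0.144 to 0.204 CPM (counts scaled to a common library size, with edgeR's TMM correction), a floor that covers counting error only. P3 replicate 0 stood somewhat apart from its group. The median absolute log2 difference over genes between it and P3 replicates 1 and 2 was 0.161 and 0.157, against 0.127 between these, 0.124 to 0.133 between P1 libraries, and 0.165 to 0.209 between a P3 and a P1 library. Where leaving out 1 library moved a count of list members by more than 1.5 times, the library is named. Libraries whose removal ended the call of a single gene are named as well, but not for every gene. Values below are log2 fold changes of P3 over P1 ± standard error from edgeR, or CPM. A gene was called higher or lower where its edgeR adjusted p, taken over the 19835 genes tested, was below 0.05. Members named beyond the 4 of each list with the smallest p were picked after their values were seen.

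**Figure D1:**
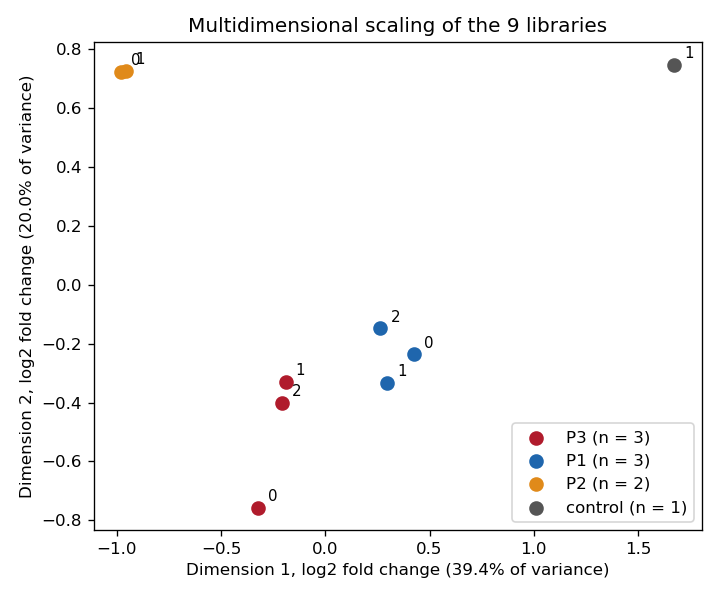
Multidimensional scaling of the 9 libraries on leading log2 fold changes, with the replicate number beside each point; P3, P1 and P2 are exposed groups and the control is 1 pooled library. The 3 P3 libraries lie at -0.32 to -0.19 on dimension 1 and the 3 P1 libraries at 0.26 to 0.42, and P3 replicate 0 lies lowest on dimension 2, at -0.76.

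Between the outcomes 2182 genes differed, 11.0% of those tested, of which 1244 (6.27%) were higher in P3 and 938 (4.73%) lower. Most differences were small, with a median fold of 1.3 among the called genes. At least 2-fold differences were called for 145 higher genes (0.731%) and 58 lower genes (0.292%). A test against a minimum change of 2-fold called 12 genes, 11 higher and 1 lower. The 3 P3 libraries did not overlap the 3 P1 libraries in 5465 genes (27.6%), 2117 of the called genes among them. Without P1 replicate 0 the calls came to 1441 in all and 581 lower, and without P1 replicate 2 to 625 lower. Without P3 replicate 0 they came to 2233, of which 1770 were also called with it. DESeq2 called 1263 genes, 1233 of them shared with edgeR.

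Of genes with an assigned symbol, a mean of at least 5 CPM in either group and no overlap between the groups, the 12 with the largest rises and the 12 with the largest falls were named. The largest rise by that rule was in slc16a9a (ENSDARG00000013926, chromosome 17, 20483927 to 20496769 on Zv9), a member of the monocarboxylate transporter family. It stood at 12.7, 14.2 and 15.8 CPM in the P3 libraries, against 2.73, 2.37 and 2.05 CPM in the P1 libraries and 0.835 CPM in the control. The groups did not overlap, as the rule required, and slc16a9a was 5.96-fold higher in P3 (2.57 ± 0.14, edgeR adjusted p = 3.22e-12). Transcripts of agt (ENSDARG00000016412, chromosome 13, 24212332 to 24219766 on Zv9), which encodes angiotensinogen, the precursor of the angiotensin peptides, stood at 19.4, 14.9 and 15.7 CPM in P3, against 4.36, 3.66 and 3.78 CPM in P1. Its P1 level was itself above the 0.334 CPM of the control, and the P3 to P1 difference was 2.08 ± 0.14 (edgeR adjusted p = 3.59e-10). The smallest p of all genes belonged to angptl4 (ENSDARG00000035859, chromosome 2, 23321879 to 23327384 on Zv9), whose product inhibits lipoprotein lipase. P3 libraries held 164, 141 and 148.5 CPM of angptl4, against 63.1, 64.8 and 64.2 CPM in P1 and 60.4 CPM in the control. All 3 P1 libraries thus lay close to the control and all 3 P3 libraries far above it, a difference of 1.24 ± 0.06 (edgeR adjusted p = 4.92e-13).

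Further large rises came from regulators and enzymes. KLF10, a zinc finger transcription factor, had 14.6, 12.5 and 13 CPM in P3, 3.14, 4.13 and 2.19 CPM in P1 and 2.84 CPM in the control (2.08 ± 0.15). Likewise irg1l, a relative of the itaconate-forming enzyme gene irg1, had 10.7, 8.52 and 8.65 CPM in P3, 2.15, 2.78 and 2.65 CPM in P1 and 1.75 CPM in the control (1.88 ± 0.15). The transporter gene abcb11a, a relative of the bile salt export pump, had 79.6, 52.3 and 56.6 CPM in P3, 18.6, 20.2 and 15 CPM in P1 and 14.8 CPM in the control. Its P3 libraries were spread widely, with replicate 0 highest, and it was 3.5-fold higher in P3 (1.81 ± 0.20, edgeR adjusted p = 0.00337). The gene cyp11a1, whose product starts steroid hormone synthesis from cholesterol, had 7.86, 7.38 and 7.62 CPM in P3, 1.45, 3.52 and 2.52 CPM in P1 and 4.76 CPM in the control (1.63 ± 0.19). Every P3 library lay above the control for it and every P1 library below. Among the 12 largest rises were also the endosomal gene plekhf1 (1.74 ± 0.14), the galectin gene lgals2b (1.69 ± 0.12), the adenosine receptor gene adora2ab (1.39 ± 0.21), the septin gene SEPT10 (1 of 2) (1.31 ± 0.17) and mogat2 (1.27 ± 0.16), which encodes a monoacylglycerol acyltransferase.

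**Figure D2:**
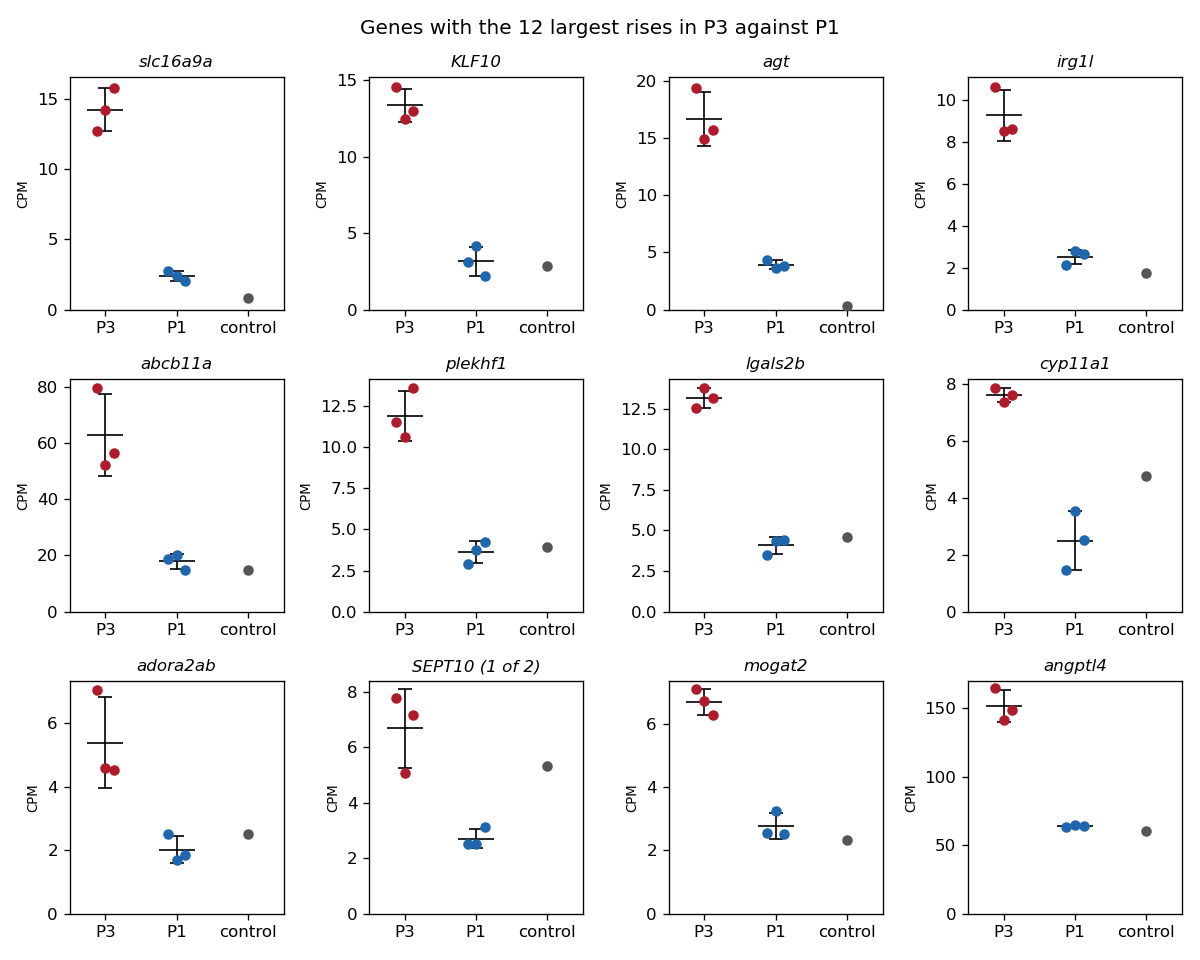
CPM in each library for the 12 genes with the largest rises in P3 against P1 (points, 3 P3, 3 P1 and 1 control library; cross and bars, mean ± SD; linear axes from 0). The naming rule required no overlap, so in every panel the 3 P3 points lie above the 3 P1 points. The control point of angptl4 lies at 60.4 CPM, beside P1.

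The lists differed in their shares of called members. The shares of members called are read against the 6.27% of all tested genes called higher and the 4.73% called lower. Mitochondrially encoded, yolk and lipid transport, hatching gland and liver plasma protein lists had the highest shares of higher members. Lens, fin fold, heat shock and sterol synthesis lists had the highest shares of lower members.

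**Figure D3:**
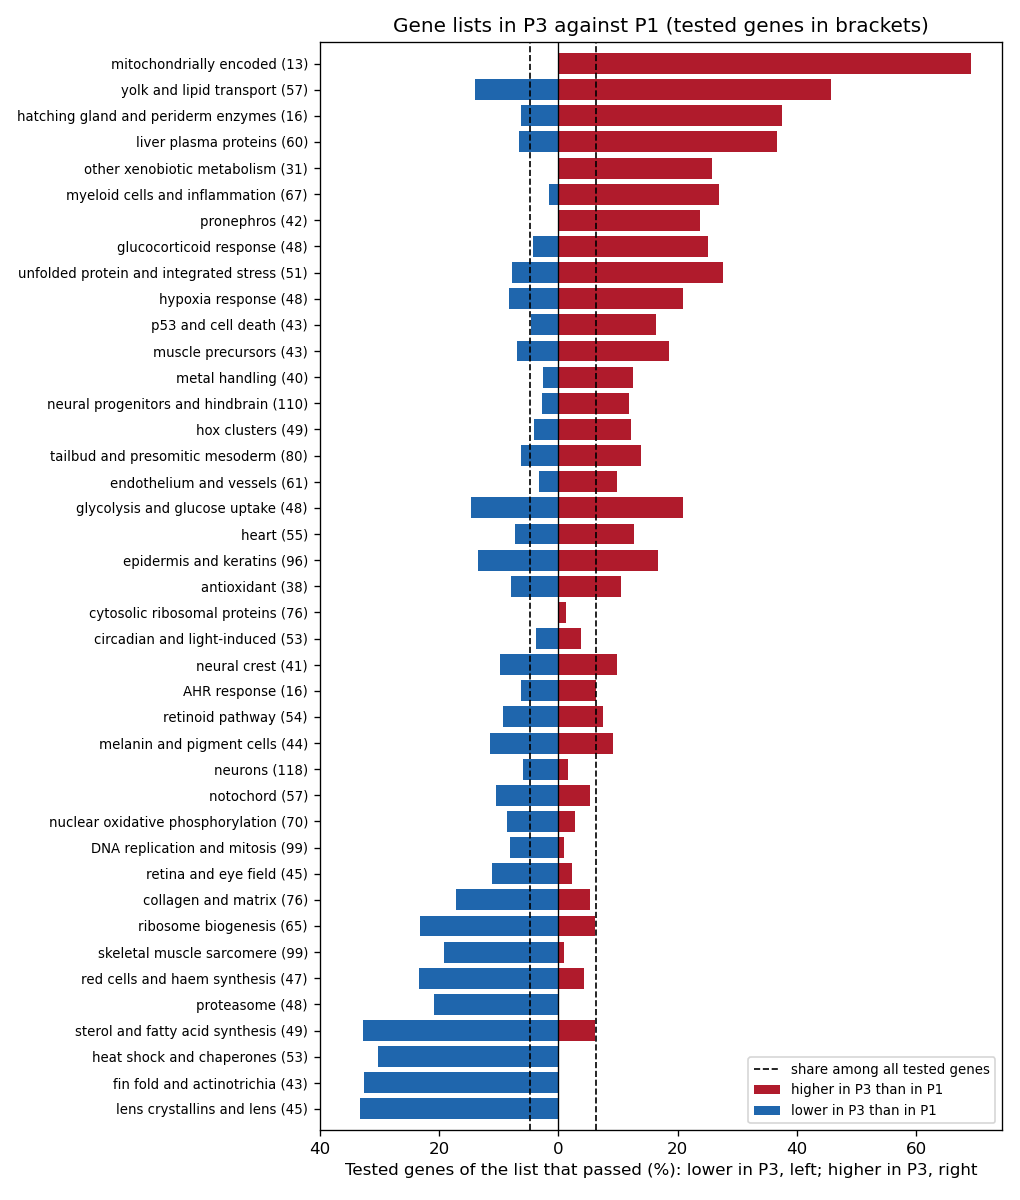
Share of tested members of each of 41 gene lists called higher (right, red) or lower (left, blue) in P3 than in P1 at an edgeR adjusted p below 0.05, with the number tested in brackets and dashed lines at the shares over all tested genes. Lists are ordered by the difference of both shares, from mitochondrially encoded genes (69.2% higher, 0 lower) to lens genes (0 higher, 33.3% lower).

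Genes that move yolk lipid were higher in P3. Of 73 yolk and lipid transport genes matched, 57 were tested, 26 were higher (45.6%) and 8 lower (14.0%), with a median log2 fold change of 0.19 against -0.001 over all tested genes. Without P3 replicate 0 the counts were 23 and 9. Summed over the list, P3 libraries held 24690, 23690 and 25220 CPM, P1 libraries 20290, 19240 and 20820 CPM and the control 21730 CPM, so the control lay between the groups. In whole-embryo RNA more cells of a type and more RNA per cell cannot be told apart. The apolipoprotein gene apoa1a, whose protein is the main one of high-density lipoprotein, had 5653, 5368 and 6240 CPM in P3, 4117, 3755 and 4558 CPM in P1 and 3956 CPM in the control (0.47 ± 0.07, edgeR adjusted p = 5.59e-05). The apolipoprotein B gene apobl (0.38 ± 0.07) and mtp (0.47 ± 0.11), which encodes the transfer protein that loads lipid onto apolipoprotein B, were higher as well. So were abca1a (0.51 ± 0.08), a cholesterol exporter, acsl4a (0.61 ± 0.06), which activates long fatty acids, and mogat3b (0.46 ± 0.10), which encodes another acylglycerol acyltransferase. The cellular retinol-binding protein gene rbp2a had 26.7, 28.7 and 31.4 CPM in P3, 12.8, 16 and 13.8 CPM in P1 and 12.9 CPM in the control, and its P3 libraries lay 2.05-fold above P1 (1.03 ± 0.09, edgeR adjusted p = 1.99e-08).

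Other members of the yolk list went the other way. The apolipoprotein E gene apoea (ENSDARG00000086370, chromosome 19, 11954418 to 11958954 on Zv9) had 85.5, 79.9 and 83 CPM in P3, against 138, 161 and 142 CPM in P1 and 135 CPM in the control. The P1 libraries lay above the control and the P3 libraries well under it, a difference of -0.83 ± 0.06 (edgeR adjusted p = 5.82e-10). The gene of the plasma retinol carrier rbp4 (ENSDARG00000077505, chromosome 12, 5737656 to 5742066 on Zv9) had 103, 97.8 and 106.5 CPM in P3 and 170.3, 172.5 and 198 CPM in P1, both under the 324 CPM of the control (-0.82 ± 0.06, edgeR adjusted p = 7.16e-10). The retinol uptake receptor gene stra6 (-0.54 ± 0.09) and the lipoprotein lipase gene lpl (-0.48 ± 0.06) were lower too. For lpl the 3 P3 libraries stood at 50.9, 55.1 and 55.3 CPM, against 76.2, 72.9 and 75.5 CPM in P1 and 93.6 CPM in the control. In P3 the transcripts of lpl were thus lower, and those of its inhibitor angptl4 higher, than in P1.

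Plasma protein genes, which the yolk syncytial layer and later the liver express, had many higher members and few lower ones. Of 81 matched, 60 were tested, 22 were higher (36.7%) and 4 lower (6.67%), with a median of 0.20. Summed CPM was 8383, 7783 and 8248 in P3, 6736, 6477 and 7025 in P1 and 7333 in the control. The protease inhibitor gene serpina1l had 114, 92.8 and 99.4 CPM in P3, 55.1, 55.7 and 56.2 CPM in P1 and 59.2 CPM in the control (0.88 ± 0.06, edgeR adjusted p = 1.24e-09). Genes of coagulation were among the higher members, namely f10 (0.78 ± 0.13), which encodes factor X, and serpinc1 (0.48 ± 0.06), which encodes antithrombin. The control held 14.5 CPM of f10, above the means of 10.8 CPM in P3 and 6.31 CPM in P1. For serpinc1 the control held 116 CPM, near the mean of 118 CPM in P3 and above the 84.9 CPM in P1. The selenium carrier gene sepp1a (0.42 ± 0.06) and the iron carrier gene tfa (0.34 ± 0.06) were higher too. For sepp1a the control held 551 CPM, above the means of 414 CPM in P3 and 310 CPM in P1. For tfa it held 1145 CPM, below the means of 1644 CPM in P3 and 1296 CPM in P1. Among the lower members was the adhesive plasma protein gene vtna (-0.73 ± 0.11), and the largest fall under the naming rule was FETUB (2 of 2), a fetuin gene outside the list, with 4.05, 6.23 and 3.49 CPM in P3, 13.2, 9.89 and 14.8 CPM in P1 and 29.6 CPM in the control (-1.49 ± 0.20). The liver regulator gene hnf4a, a defining marker of the list, did not pass (0.21 ± 0.08, edgeR adjusted p = 0.105), though it did without P3 replicate 2 (edgeR adjusted p = 0.03).

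Sterol synthesis genes were lower in P3 while the transport genes were higher. Of 49 tested genes of sterol and fatty acid synthesis, 16 were lower (32.7%) and 3 higher (6.12%), with a median of -0.16, and 16 and 3 again without P3 replicate 0. Enzymes of both early and late steps of the sterol path were among the lower ones, though not every step is shown. HMG-CoA reductase, the rate-limiting enzyme of cholesterol synthesis, is encoded by hmgcra (ENSDARG00000052734, chromosome 5, 52658957 to 52678922 on Zv9), which had 1.06, 1.72 and 1.77 CPM in P3, against 4.01, 3.25 and 3.11 CPM in P1. The control stood at 1.08 CPM, beside the P3 libraries, and the difference was -1.18 ± 0.21 (edgeR adjusted p = 4.31e-04). Lanosterol synthase (lss) had 1.5, 1.46 and 2.31 CPM in P3, 3.37, 3.66 and 3.05 CPM in P1 and 1.75 CPM in the control (-0.90 ± 0.20). The demethylase gene cyp51 had 4.68, 8.71 and 8.75 CPM in P3, 16.3, 13.6 and 13.1 CPM in P1 and 11.4 CPM in the control, with P3 replicate 0 lowest (-0.95 ± 0.20). Its call was lost without P1 replicate 0 (edgeR adjusted p = 0.054) or P1 replicate 1 (edgeR adjusted p = 0.056). Later steps fell as well, as msmo1 (-0.84 ± 0.20), nsdhl (-0.69 ± 0.15) and ebp (-0.70 ± 0.13) show, and the earlier hmgcs1 (-0.30 ± 0.07) and idi1 (-0.28 ± 0.06) fell less. The gene of the regulator of the path, srebf2, had 84.5, 98 and 101 CPM in P3, 125, 107 and 127.5 CPM in P1 and 85.3 CPM in the control (-0.34 ± 0.07). Fatty acid elongases split, with elovl2 lower (-0.91 ± 0.13) and elovl5 higher (0.49 ± 0.09), and acacb, an acetyl-CoA carboxylase gene, higher (0.40 ± 0.07).

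**Figure D4:**
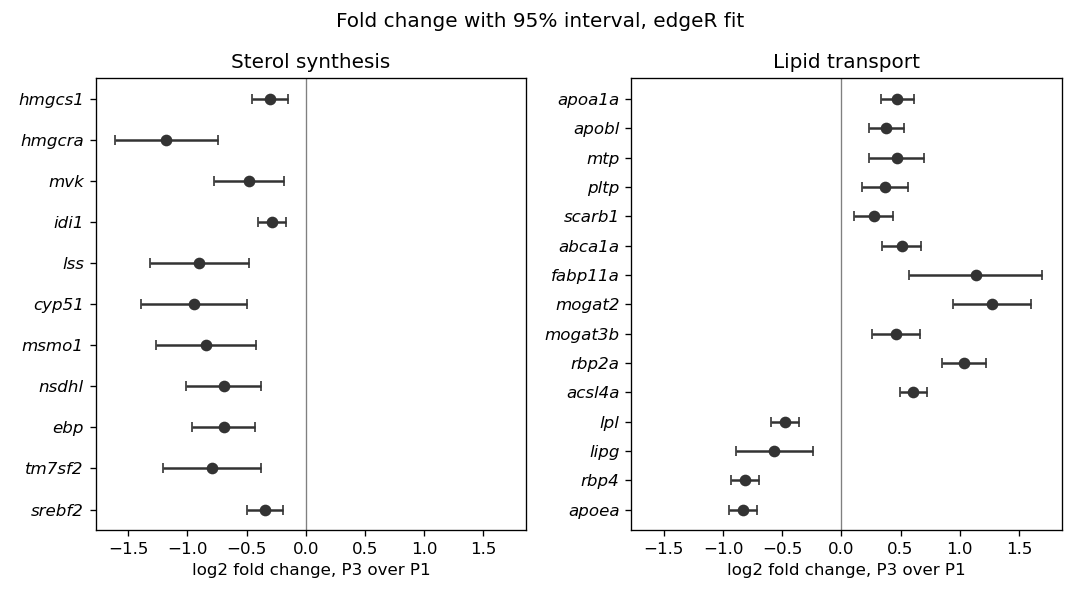
Log2 fold change of P3 over P1 (points) with its 95% interval (bars) for 11 genes of sterol synthesis (left) and 15 of lipid uptake and transport (right), picked after their values were seen. Every sterol gene shown lies below 0, from hmgcra at -1.18 to idi1 at -0.28. Transport genes shown lie above 0, from scarb1 at 0.27 to mogat2 at 1.27, or below it, as lpl, the endothelial lipase gene lipg at -0.57, rbp4 and apoea do.

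Of the genes in the plot of lipid genes, calls other than that of cyp51 were lost for mvk without any one of P3 replicates 1 and 2 and P1 replicates 1 and 2, for tm7sf2 without P1 replicate 0, for pltp and lipg without P1 replicate 0 or P1 replicate 2, for fabp11a without P1 replicate 1 and for scarb1 without any one library but P3 replicate 1.

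Genes of glucose supply were higher and those of glycolysis lower. Of 48 tested genes of glycolysis and glucose uptake, 10 were higher (20.8%) and 7 lower (14.6%), and the median was -0.08. The liver-type glycogen synthase gene gys2 (ENSDARG00000004904, chromosome 4, 15868483 to 15892415 on Zv9) had 64.7, 62.8 and 59.8 CPM in P3, against 32.4, 32 and 36.6 CPM in P1 and 19.4 CPM in the control (0.89 ± 0.07, edgeR adjusted p = 1.06e-09). Genes of glucose making, pck1 (0.62 ± 0.09) and fbp1b (0.26 ± 0.06), were higher as well. For pck1 the control held 19.8 CPM, beside the mean of 19.4 CPM in P1 and below the 29.8 CPM in P3. For fbp1b both groups lay under the 193 CPM of the control, at means of 147 CPM in P3 and 123 CPM in P1. Glucose transporter genes rose too, slc2a3 with 73.8, 70.2 and 68.1 CPM in P3, 44.9, 41.4 and 43.7 CPM in P1 and 32.3 CPM in the control (0.70 ± 0.06), slc2a1a (0.70 ± 0.10) and slc2a2 (0.43 ± 0.08). Against these, the glycolytic enzyme genes tpi1b (-0.31 ± 0.07), eno1a (-0.29 ± 0.06), gpia (-0.27 ± 0.06) and aldoaa (-0.22 ± 0.05) were lower in P3, each by less than 1.5-fold.

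Genes that respond to low oxygen, glucocorticoids and amino acid or translation stress overlapped in membership and had many higher members. Of 48 tested hypoxia genes 10 were higher (20.8%) and 4 lower (8.33%), angptl4 being the one with the smallest p. Regulators of glycolysis and translation were among them, pfkfb4l with 129, 115 and 118 CPM in P3, 66.8, 73.7 and 61.8 CPM in P1 and 48.4 CPM in the control (0.84 ± 0.06), mknk2a (0.85 ± 0.09) and mknk2b (0.53 ± 0.05). The lactate exporter gene slc16a3, a usual target of the hypoxia factor, was lower in P3 (-0.49 ± 0.09). Of 48 glucocorticoid response genes 12 were higher (25.0%) and 2 lower (4.17%). The lower ones numbered 0 without P3 replicate 1 or P1 replicate 1, and 1 without any one other P3 or P1 library. The gene txnipa, whose product binds thioredoxin and restrains glucose uptake, had 573, 506 and 509 CPM in P3, 299, 303 and 284 CPM in P1 and 299.9 CPM in the control (0.84 ± 0.05, edgeR adjusted p = 2.01e-10). Its copy txnipb had 21.8, 19.5 and 19.1 CPM in P3, 10.9, 10.5 and 9.54 CPM in P1 and 15.1 CPM in the control (0.96 ± 0.09), and tsc22d3, a standard glucocorticoid target, was higher as well (0.52 ± 0.06). With all libraries fkbp5 went the other way (-0.73 ± 0.21, edgeR adjusted p = 0.0216), and its calls with 1 library left out are not given. It had 2.37, 1.46 and 1.57 CPM in P3 and 2.85, 3.32 and 2.78 CPM in P1. Of 51 genes of the unfolded protein and integrated stress responses 14 were higher (27.5%) and 4 lower (7.84%), with 9 higher and 1 lower without P1 replicate 1 and 2 lower without P3 replicate 1 or P1 replicate 2. Among those that rose were genes of the integrated stress arm, ddit4 (0.69 ± 0.09), which restrains mTOR signalling, sesn2 (0.60 ± 0.08), PPP1R15A (0.44 ± 0.07), PPP1R15B (0.63 ± 0.14) and the amino acid transporter gene slc3a2b (0.44 ± 0.06). A folding gene of the endoplasmic reticulum, creld2, was lower (-0.35 ± 0.08).

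Inflammation genes were higher in P3, while the defining markers of myeloid cells did not pass. Of 84 myeloid and inflammation genes matched, 67 were tested, 18 were higher (26.9%) and 1 lower (1.49%), with a median of 0.13, and 10 were higher without P1 replicate 1. The tumour necrosis factor gene tnfb had 25, 22 and 22 reads in the P3 libraries, against 4, 4 and 3 reads in the P1 libraries, or 1.56, 1.4 and 1.08 CPM in P3, 0.232, 0.271 and 0.199 CPM in P1 and 0.334 CPM in the control. It is therefore a gene of very few reads in P1, and its fitted difference was 2.47 ± 0.38 (edgeR adjusted p = 8.19e-05). The NF-kappaB inhibitor gene nfkbiaa, itself a target of that factor, had 8.85, 10.2 and 10.9 CPM in P3, 5.93, 5.96 and 6.29 CPM in P1 and 8.18 CPM in the control (0.73 ± 0.12). The collagenase gene mmp13a had 6.49, 7.06 and 8.11 CPM in P3, 3.54, 3.05 and 3.78 CPM in P1 and 1.17 CPM in the control (1.07 ± 0.15), and the complement gene cfb (0.47 ± 0.08) was higher too. For cfb both groups lay under the 48 CPM of the control, at means of 31.4 CPM in P3 and 22.6 CPM in P1. The neutrophil and macrophage markers did not pass, as mpx (log2 fold change 0.12 ± 0.17, edgeR adjusted p = 0.724) and lyz (log2 fold change -0.11 ± 0.11, edgeR adjusted p = 0.611) show. Summed over the list, CPM was 1355, 1453 and 1468 in P3, 1260, 1183 and 1216 in P1 and 1456 in the control. One member, the complement-like gene cfdl, was lower (-0.59 ± 0.09).

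Pronephros genes were higher in P3. Of 42 tested, 10 were higher (23.8%) and 0 lower, with a median of 0.11 and summed CPM of 1509, 1479 and 1499 in P3, 1319, 1296 and 1291 in P1 and 1234 in the control. The sodium, potassium and chloride cotransporter gene slc12a1 had 13.7, 12.3 and 11.5 CPM in P3, 7.32, 8.13 and 6.69 CPM in P1 and 13.7 CPM in the control (0.76 ± 0.11). The sulfate transporter gene slc26a1 (0.73 ± 0.09), the sodium and proton exchanger gene slc9a3.1 (0.90 ± 0.19), the scaffold gene pdzk1 (0.65 ± 0.12) and the kidney regulator gene hnf1ba (0.57 ± 0.08) rose too. Of 31 tested genes of xenobiotic metabolism other than AHR targets, 8 were higher (25.8%) and 0 lower, but 5 were higher without P1 replicate 0 or without P1 replicate 2. The conjugate exporter gene abcc2 (0.42 ± 0.07), the glutathione transferase gene gsto2 (0.60 ± 0.11) and the methyltransferase gene comtb (0.57 ± 0.11) were among them. Metal handling had 5 higher and 1 lower of 40 tested, with the zinc exporter gene slc30a1b at 27.1, 23.8 and 25 CPM in P3, 11.4, 9.89 and 13.6 CPM in P1 and 8.85 CPM in the control (1.12 ± 0.10) and the zinc importer gene slc39a5 (0.75 ± 0.08) both higher. Hatching gland and periderm enzymes had 6 higher (37.5%) and 1 lower (6.25%) of 16 tested. The hatching enzyme gene he1a, a defining marker with close copies, was 1.21-fold higher, he1a (log2 fold change 0.28 ± 0.05, edgeR adjusted p = 4.69e-04), and ctsl1b (0.33 ± 0.06) rose too. The defining marker he2 did not pass, he2 (log2 fold change 0.20 ± 0.46, edgeR adjusted p = 0.846). It varied widely, at 39.8 ± 23.9 CPM in P3 and 34.5 ± 8.54 CPM in P1 (SD, n = 3 each).

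Mitochondrially encoded genes were slightly higher in P3 and nuclear genes of the same respiratory chain were not. Of 13 tested mitochondrial genes 9 were higher (69.2%) and 0 lower, with a median of 0.19, or 5 higher without P3 replicate 0 and 2 without P1 replicate 1. Their share of all counts was 4.07% ± 0.126 in P3 and 3.57% ± 0.147 in P1 (SD, n = 3 each), against 2.73% in the control. The 3 P3 libraries lay above the 3 P1 libraries, and an exact permutation test gave p = 0.1 (two-sided), the smallest that 3 against 3 allows. The cytochrome b gene mt-cyb had 4674, 4267 and 4338 CPM in P3, 3735, 3494 and 3811 CPM in P1 and 2392 CPM in the control (0.27 ± 0.05). Of 70 tested nuclear genes of oxidative phosphorylation 2 were higher (2.86%) and 6 lower (8.57%). Subunit genes among the lower ones were cox6b1 (-0.68 ± 0.08), ndufa4 (-0.57 ± 0.07) and uqcrfs1 (-0.41 ± 0.08), with the cytochrome c gene cycsb (-0.36 ± 0.05). With P3 replicate 2 left out, 12 of these nuclear genes were lower.

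The fin fold, the part of the tail that actinotrichia hold out, had lower transcripts in P3 than in the embryos sorted for deformed tails. Of 43 tested fin fold genes 14 were lower (32.6%) and 0 higher, with a median of -0.19. The count was 5 without P1 replicate 0, 8 without P1 replicate 1 and 7 without P1 replicate 2. Actinodin genes moved most. P3 libraries had 0.935, 2.1 and 1.82 CPM of and2 (ENSDARG00000079302, chromosome 2, 31480049 to 31484497 on Zv9), against 4.07, 4.34 and 4.83 CPM in P1 and 57.7 CPM in the control. Both outcomes thus lay far below the control, and and2 was lower still in P3, by 2.69-fold (-1.43 ± 0.20, edgeR adjusted p = 2.81e-05). Its relative and1 (ENSDARG00000088514, chromosome 24, 27076744 to 27079580 on Zv9) had 8.11, 13.9 and 12.5 CPM in P3, against 25.4, 21.5 and 26 CPM in P1 and 83.2 CPM in the control (-1.08 ± 0.15, edgeR adjusted p = 0.00125). Actinodins are close copies of each other, so reads shared between them make their values uncertain. The fin fold regulator gene dlx5a (-0.30 ± 0.06) and the matrix gene postnb (-0.24 ± 0.05) were lower too, by smaller amounts.

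Collagen and matrix genes had 13 lower (17.1%) and 4 higher (5.26%) of 76 tested, or 6 lower without P1 replicate 0 and 8 without P1 replicate 1. The thrombospondin genes thbs1b (-0.56 ± 0.06) and thbs2b (-0.90 ± 0.08), the proteoglycan gene lum (-0.58 ± 0.07) and the basement membrane collagen gene col4a4 (-0.52 ± 0.08) were lower. For thbs1b the P3 libraries held 123, 136 and 137 CPM, beside the 136 CPM of the control, against 211, 177 and 194 CPM in P1. GLT25D1 (2 of 3), a gene for an enzyme that adds galactose to collagen, had 11, 12.3 and 12 CPM in P3, 33.4, 25.8 and 23.1 CPM in P1 and 28.3 CPM in the control (-1.22 ± 0.12). For GLT25D1 (2 of 3) P1 lay around the control and P3 below it. The metalloprotease inhibitor gene timp2a was higher (0.46 ± 0.09).

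The share of tailbud genes called lower was near that over all genes, and the number called higher depended on single P1 libraries. Of 80 tested tailbud genes 11 were higher (13.8%) and 5 lower (6.25%), but 6 were higher without P1 replicate 0 or without P1 replicate 2, and 2 or 3 lower without any one of P3 replicates 1 and 2 and P1 replicates 0, 1 and 2. The member with the smallest p was thbs2b, the thrombospondin gene given above, which was lower. The T-box gene tbx6, which specifies paraxial mesoderm, had 27, 21.4 and 21.9 CPM in P3, against 12.8, 14.2 and 11.7 CPM in P1 and 5.34 CPM in the control (0.86 ± 0.10, edgeR adjusted p = 1.18e-06). Both outcomes were above the control, P3 more so. The presomitic protocadherin gene pcdh8 had 11.8, 9.86 and 10.7 CPM in P3, 6.57, 7.11 and 6.23 CPM in P1 and 3.92 CPM in the control (0.70 ± 0.12), and the Notch target gene her6 was higher too (0.34 ± 0.06). Of 49 hox genes 6 were higher (12.2%) and 2 lower (4.08%), with 2 higher without P1 replicate 1 and 3 without P1 replicate 2, and 1 lower without any library other than P3 replicate 0. The higher ones named are hindbrain genes at the anterior end of the clusters, hoxb1b (0.49 ± 0.06) and hoxb1a (0.38 ± 0.09). Neural progenitor and hindbrain genes had 13 higher (11.8%) and 3 lower (2.73%) of 110 tested, with the ligand gene wnt8b (0.53 ± 0.11) and her2 (0.44 ± 0.07) among them. The muscle regulator myod1 did not pass (38, 35.1 and 33.4 CPM in P3, 33.1, 33.9 and 37.3 CPM in P1 and 33.4 CPM in the control; 0.03 ± 0.07, edgeR adjusted p = 0.855, 95% interval -0.12 to 0.17), nor did the notochord and floor plate signal gene shha (-0.01 ± 0.06, edgeR adjusted p = 0.945, 95% interval -0.14 to 0.12).

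**Figure D5:**
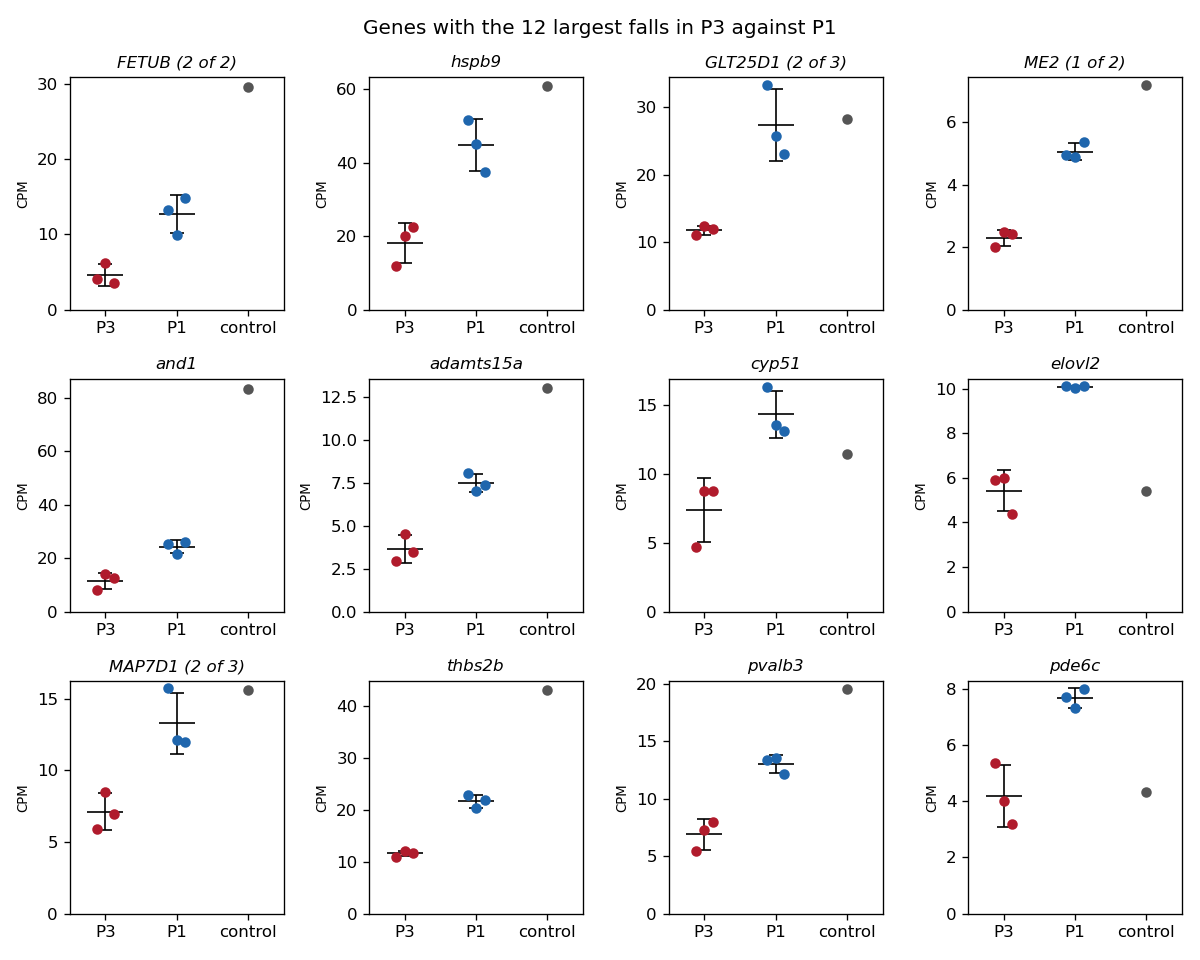
CPM in each library for the 12 genes with the largest falls in P3 against P1 (points, 3 P3, 3 P1 and 1 control library; cross and bars, mean ± SD; linear axes from 0). The naming rule required no overlap, so in every panel the 3 P3 points lie below the 3 P1 points. For and1 both groups lie far below the control, which stands at 83.2 CPM.

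Lens genes had the largest median difference of the lists. Of 76 matched, 45 were tested, and 15 were lower (33.3%) and 0 higher, with a median of -0.65, or 8 lower without P1 replicate 0. Summed CPM was 241.5, 297.5 and 302.9 in P3, 379.9, 342.1 and 373.5 in P1 and 954.4 in the control. In the median each member counts alike, those of few reads included. The low member crygm2d6 had 0, 2 and 0 reads in P3, 9, 5 and 5 in P1 and 25 in the control. It reached the filter's minimum count of 10 only in the control. The crystallin gene cryba2a had 6.17, 9.79 and 8.75 CPM in P3, 15, 14.2 and 13.6 CPM in P1 and 50.7 CPM in the control (-0.79 ± 0.12, edgeR adjusted p = 1.02e-04). P3 replicate 0 was the lowest library for it, and all 6 exposed libraries lay far under the control. The crystallin genes crybb1l1 (-0.73 ± 0.13), cryba4 (-0.65 ± 0.12) and cryba2b (-0.68 ± 0.10) and the lens water channel gene mipa (-0.80 ± 0.15) were lower. Crystallins have many close copies, and reads shared between them make single values uncertain. Of 45 tested retina and eye field genes, 5 were lower (11.1%) and 1 higher (2.22%), with pde6c, a cone phosphodiesterase gene, at 5.36, 4.01 and 3.2 CPM in P3, 7.73, 7.32 and 8.02 CPM in P1 and 4.34 CPM in the control (-0.89 ± 0.15) and the eye field gene rx2 at -0.43 ± 0.10.

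Muscle genes were lower in P3. Of 107 matched genes of the sarcomere and its calcium handling, 99 were tested, 19 were lower (19.2%) and 1 higher (1.01%), with a median of -0.18. The lower count was 6 without P1 replicate 0 and 32 without P3 replicate 2. Skeletal actin acta1b (ENSDARG00000055618, chromosome 13, 24502948 to 24508332 on Zv9) had 870.5, 924 and 1014 CPM in P3, against 1313, 1299 and 1357 CPM in P1 and 1836 CPM in the control (-0.50 ± 0.06, edgeR adjusted p = 8.78e-07). The calcium store gene casq1a had 25.6, 33.4 and 32.1 CPM in P3, 53.1, 50.1 and 48.2 CPM in P1 and 98.6 CPM in the control (-0.73 ± 0.08), and the calcium buffer gene pvalb3 (-0.90 ± 0.12) was lower as well. The myosin light chain gene mylpfa, a defining marker, did not pass, mylpfa (log2 fold change -0.35 ± 0.11, edgeR adjusted p = 0.0772). A slow myosin gene, smyhc2, was higher (0.51 ± 0.07). Heart genes had 7 higher (12.7%) and 4 lower (7.27%) of 55 tested, or 4 higher without P3 replicate 2 or P1 replicate 2, 2 lower without P1 replicate 0 and 1 lower without P1 replicate 1. The list held the heart regulator genes gata5 (0.51 ± 0.08) and gata6 (0.36 ± 0.06) higher. The genes gata5 and gata6 also act in endoderm, and the heart markers myl7 (log2 fold change 0.15 ± 0.06, edgeR adjusted p = 0.127) and vmhc (log2 fold change 0.18 ± 0.07, edgeR adjusted p = 0.117) did not pass.

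Red cell genes, those of haem synthesis among them, were lower in P3. Of 47 tested, 11 were lower (23.4%) and 2 higher (4.26%), or 7 lower without P1 replicate 0. The haem synthesis genes fech (-0.55 ± 0.11), alas2 (-0.34 ± 0.07) and urod (-0.22 ± 0.05) and the transferrin receptor gene tfr1a (-0.43 ± 0.07) were lower. The globin gene hbae3 did not pass, hbae3 (log2 fold change -0.19 ± 0.10, edgeR adjusted p = 0.293). Neither entry of the globin gene hbbe1.1 passed (-0.60 ± 0.17, edgeR adjusted p = 0.0998, and -0.22 ± 0.13, edgeR adjusted p = 0.364). Other globin genes were called lower with all libraries. They were hbbe3 (-0.25 ± 0.07, edgeR adjusted p = 0.0176) and the hbae1 entry ENSDARG00000089475 (-0.44 ± 0.11, edgeR adjusted p = 0.0214). The other hbae1 entry did not pass. Calls of hbbe3 and hbae1 with 1 library left out are not given. For alas2 the P3 libraries held 85.8, 101 and 105 CPM, against 125, 115 and 131 CPM in P1 and 108 CPM in the control, which lay between them. The haem-path carrier gene slc25a38a went the other way (0.74 ± 0.13). Endothelial genes had 6 higher (9.84%) and 2 lower (3.28%) of 61 tested, or 3 higher without P1 replicate 0 and 2 without P1 replicate 2. The vascular growth factor receptor gene kdr had 20.1, 18.6 and 19.4 CPM in P3, 12.3, 10.8 and 9.6 CPM in P1 and 14.5 CPM in the control (0.82 ± 0.09), its paralogue kdrl did not pass, kdrl (log2 fold change 0.15 ± 0.07, edgeR adjusted p = 0.168), and the receptor gene acvrl1 was lower (-0.57 ± 0.09).

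Epidermal genes went both ways. Of 96 tested, 16 were higher (16.7%) and 13 lower (13.5%), or 8 lower without P1 replicate 1. The simple epithelial keratin gene krt18 had 506, 456 and 465 CPM in P3, 352, 376 and 353 CPM in P1 and 420.1 CPM in the control (0.40 ± 0.05), and the claudin gene cldna (0.58 ± 0.11) and s100v2 (0.69 ± 0.10) were higher. Genes of ionocytes, the skin cells that move salt, were among the lower ones, with the sodium pump genes atp1a1a.3 (-0.53 ± 0.10) and atp1b1b (-0.35 ± 0.05) and the carbonic anhydrase gene ca2 (-0.27 ± 0.05). Of other members of the epidermal list, pvalb8 was lower (-0.81 ± 0.10) and pvalb9 higher (0.37 ± 0.05). The periderm keratin gene krt4 stood at 10828 ± 273 CPM in P3 and 10638 ± 398 CPM in P1 (SD, n = 3 each) and did not pass, krt4 (log2 fold change 0.03 ± 0.05, edgeR adjusted p = 0.813). Neuron genes had 7 lower (5.93%) and 2 higher (1.69%) of 118 tested, a share of lower genes near that over all genes, with 2 lower without P1 replicate 0, and the neuronal marker elavl3 did not pass, elavl3 (log2 fold change -0.07 ± 0.06, edgeR adjusted p = 0.515).

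Heat shock and chaperone genes were lower in P3, with 16 lower (30.2%) and 0 higher of 53 tested and a median of -0.15, or 10 lower without P3 replicate 1. The co-chaperone gene ptges3b had 17.6, 16.3 and 17.4 CPM in P3, 31.1, 26.6 and 27.9 CPM in P1 and 18.6 CPM in the control (-0.74 ± 0.08, edgeR adjusted p = 6.08e-07). P3 libraries lay beside the control for it and P1 libraries above. The genes bag2 (-0.59 ± 0.10), hspa4a (-0.42 ± 0.06) and the endoplasmic reticulum gene dnajb11 (-0.32 ± 0.05) were lower, and the mitochondrial chaperonin gene hspd1 had 298, 299 and 299 CPM in P3, 354, 358.5 and 377 CPM in P1 and 256.5 CPM in the control (-0.28 ± 0.05). The small heat shock protein gene hspb9 showed the largest fall of the list (-1.29 ± 0.24), with a call lost without P3 replicate 1 (edgeR adjusted p = 0.07), P1 replicate 0 (edgeR adjusted p = 0.092) or P1 replicate 1 (edgeR adjusted p = 0.089). The inducible gene hsp70l had few reads, 19, 3 and 10 in the P3 libraries and 11, 10 and 6 in the P1 libraries, or 1.19, 0.191 and 0.492 CPM in P3, 0.639, 0.677 and 0.397 CPM in P1 and 0.167 CPM in the control, and did not pass (0.10 ± 0.47). Proteasome genes had 10 lower (20.8%) and 0 higher of 48 tested, or 4 lower without P1 replicate 2, with psmd11a (-0.23 ± 0.05) and psme3 (-0.23 ± 0.05) among them. Ribosome biogenesis genes had 15 lower (23.1%) and 4 higher (6.15%) of 65 tested. This count rested heavily on single libraries, with 25 lower without P3 replicate 0, 8 without P3 replicate 1, 6 without P1 replicate 1 and 9 without P1 replicate 2. The DNA replication list had 8 lower (8.08%) and 1 higher (1.01%) of 99 tested, or 13 lower without P3 replicate 0, with pold1 (-0.29 ± 0.05), a polymerase gene, and the helicase gene mcm5 (-0.23 ± 0.05) lower.

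The CYP1 genes, which report AHR activation, were high in both outcomes and none passed the test between them with all libraries. The gene cyp1a (ENSDARG00000026039, chromosome 18, 4974676 to 4985566 on Zv9) had 3821, 4221 and 4310 CPM in P3, against 4189, 4028 and 4071 CPM in P1 and 119 CPM in the control. P3 and P1 libraries overlapped, and the difference was 0.01 ± 0.05 (edgeR adjusted p = 0.953), with a 95% interval of -0.10 to 0.12 on the log2 scale. For cyp1b1, which had 404, 433 and 373 CPM in P3, 466, 453 and 415 CPM in P1 and 11 CPM in the control, the difference was -0.14 ± 0.06 (edgeR adjusted p = 0.12, 95% interval -0.26 to -0.02), though it passed without P3 replicate 1 (edgeR adjusted p = 0.036). The pair cyp1c1 and cyp1c2, close copies of each other, had wider intervals. Transcripts of cyp1c1 stood at 118, 176 and 169.6 CPM in P3, 217, 181 and 186 CPM in P1 and 3.92 CPM in the control, with P3 replicate 0 lowest (-0.33 ± 0.17, edgeR adjusted p = 0.308, 95% interval -0.75 to 0.09). The interval of cyp1c2 ran over -0.65 to 0.22 (edgeR adjusted p = 0.526). Of 16 tested AHR response genes 1 was higher and 1 lower (6.25% each), near the shares over all genes, with a median of -0.08. The higher one was the sulfotransferase gene sult6b1 (0.22 ± 0.06), whose call was lost without P3 replicate 1 (edgeR adjusted p = 0.1), P3 replicate 2 (edgeR adjusted p = 0.13), P1 replicate 0 (edgeR adjusted p = 0.1) or P1 replicate 1 (edgeR adjusted p = 0.098). The lower one was the quinone reductase gene nqo1 (-0.27 ± 0.07), whose call was lost without P1 replicate 0 (edgeR adjusted p = 0.066).

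Single stress genes varied in whether and by how much they differed. The metallothionein gene mt2 had 44.8, 45.5 and 53.2 CPM in P3, 49.6, 40.4 and 49.7 CPM in P1 and 94.3 CPM in the control and did not pass (0.04 ± 0.08, edgeR adjusted p = 0.816, 95% interval -0.13 to 0.21). The haem oxygenase gene hmox1 had 64.9, 59.6 and 63.4 CPM in P3, 79.7, 64.1 and 74.5 CPM in P1 and 74.5 CPM in the control, with overlapping groups. It passed (-0.22 ± 0.07, edgeR adjusted p = 0.037), but not without P3 replicate 1 (0.13 as the edgeR adjusted p), P3 replicate 2 (0.076), P1 replicate 0 (0.24) or P1 replicate 2 (0.13), and not with DESeq2. The p53 target mdm2 passed by a similar margin (0.23 ± 0.07, edgeR adjusted p = 0.0273), but not without P3 replicate 1 (0.089), P3 replicate 2 (0.14), P1 replicate 0 (0.15) or P1 replicate 1 (0.054), and not with DESeq2. The p53 and cell death list had 7 higher (16.3%) and 2 lower (4.65%) of 43 tested, or 3 higher without P1 replicate 0 and 4 without P3 replicate 2. The stress gene sesn3 (104, 92.7 and 93.8 CPM in P3, 59.5, 65.5 and 66.2 CPM in P1 and 68.3 CPM in the control; 0.60 ± 0.06) and gadd45ba (0.59 ± 0.09) were among the higher ones. The light-regulated clock gene per2 had 36.7, 72 and 68.6 CPM in P3, 71.5, 70.5 and 75.9 CPM in P1 and 21.8 CPM in the control, with P3 replicate 0 well below the other exposed libraries, and per2 did not pass (-0.29 ± 0.26, edgeR adjusted p = 0.569, 95% interval -0.95 to 0.37). The neural crest gene sox10 did not overlap between groups but did not pass (0.16 ± 0.07, edgeR adjusted p = 0.132).

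Several tissue and housekeeping lists had counts in both directions or few calls. Of 43 tested muscle precursor genes 8 were higher (18.6%) and 3 lower (6.98%), with a median of 0.06, or 5 higher and 1 lower without P1 replicate 0. The adhesion gene jam2a, which takes part in muscle cell fusion, had 37.2, 31.7 and 38.1 CPM in P3, 25.3, 30.8 and 25.1 CPM in P1 and 12.1 CPM in the control (0.40 ± 0.09), and the myosin chaperone gene unc45b was lower (-0.23 ± 0.05). Of 57 notochord genes 3 were higher (5.26%) and 6 lower (10.5%), or 2 lower without P3 replicate 0 and 1 without P1 replicate 0. Of 44 pigment cell genes 4 were higher (9.09%) and 5 lower (11.4%), or 3 lower without P1 replicate 0. The higher ones included gart and paics, genes of purine synthesis. Of the defining pigment markers, dct was lower (log2 fold change -0.32 ± 0.07, edgeR adjusted p = 0.00584). Calls of dct with 1 library left out were not listed. The marker tyrp1b did not pass (log2 fold change -0.23 ± 0.19, edgeR adjusted p = 0.547). The pteridine path gene qdpra had 9.48, 11.7 and 11.8 CPM in P3, 16.5, 16.3 and 14.9 CPM in P1 and 18.1 CPM in the control (-0.53 ± 0.10). Neural crest genes had 4 higher and 4 lower (9.76% each) of 41, or 1 or 2 higher without P3 replicates 0 or 2 or P1 replicates 0 or 2. Retinoid pathway genes had 4 higher (7.41%) and 5 lower (9.26%) of 54, with rbp4, stra6 and rbp2a of the yolk list among them. Antioxidant genes had 4 higher (10.5%) and 3 lower (7.89%) of 38, or 1 lower without P3 replicate 1, P1 replicate 0 or P1 replicate 2. The pentose phosphate enzyme gene tkt had 713, 713 and 724 CPM in P3, 598, 587.5 and 585 CPM in P1 and 427 CPM in the control (0.28 ± 0.05), and the autophagy receptor gene sqstm1 had 90.7, 119 and 122 CPM in P3, 75.1, 73.1 and 75.9 CPM in P1 and 45.2 CPM in the control, with P3 replicate 0 lowest of its group (0.57 ± 0.10). Of 53 circadian genes 2 were higher and 2 lower (3.77% each), and of 76 genes of cytosolic ribosomal proteins 1 was higher (1.32%) and 0 lower, with summed CPM of 100000, 93530 and 103400 in P3, 93830, 95280 and 100500 in P1 and 96960 in the control.

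Small counts of list members moved with single libraries as well. Sarcomere genes called higher numbered 3 without P3 replicate 0, 2 without P3 replicate 1 or P1 replicate 0 and 5 without P1 replicate 1, against 1 with all. Circadian genes called higher numbered 4 without P3 replicate 0 and 1 without P1 replicate 0, and those called lower 1 without P3 replicate 2, P1 replicate 0 or P1 replicate 2. Higher notochord genes numbered 1 without P3 replicate 2, P1 replicate 0 or P1 replicate 2, and higher neuron genes 1 without P3 replicate 1, P1 replicate 0 or P1 replicate 1. Nuclear oxidative phosphorylation genes called higher numbered 1 without P3 replicate 0, P3 replicate 2, P1 replicate 0 or P1 replicate 2. The single higher retina gene lost its call without P3 replicate 2 or any one P1 library, and the count of higher ribosomal protein genes was 2 without P3 replicate 1 and 0 without any one other library but P1 replicate 1. Lower p53 and cell death genes numbered 0 without P3 replicate 0, P1 replicate 1 or P1 replicate 2 and 1 without P3 replicate 1. AHR response genes called higher numbered 2 without P3 replicate 0, and those called lower 2 without P3 replicate 1 or P1 replicate 2. Lower genes came to 2 in xenobiotic metabolism without P3 replicate 0, 2 in metal handling without P3 replicate 1 and 2 in the myeloid list without P3 replicate 2. Higher genes came to 1 in the fin fold list without P3 replicate 2 or P1 replicate 0, 1 in the lens list without P1 replicate 2 and 0 in the DNA replication list without P1 replicate 2.

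The authors compared each outcome with the control, which both comparisons share, on a variance-corrected log2 scale that shrinks low genes. For slc16a9a the authors' deposited table gave 1.23 for P3 over the control and 0.21 for P1 over the control. For angptl4 the authors' deposited table gave 1.11 for P3 and 0.05 for P1, and for agt the authors' deposited table gave 1.53 for P3 and 0.48 for P1. For apoea the authors' deposited table gave -0.62 for P3 and 0.12 for P1. For and2 the authors' deposited table gave -2.44 for P3 and -1.64 for P1, and for cyp1a the authors' deposited table gave 4.87 for P3 and 4.77 for P1. Placed side by side, these values put P3 above P1 for slc16a9a, angptl4 and agt, and below it for apoea and and2.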

How the data were processed

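Poly(A) libraries (Illumina TruSeq v2) were made from whole embryos, per the labels' protocols, and reads were aligned to the Zv9 genome by Novoalign, whose version is not stated, per the submitters' processing notes. How reads were counted, with which strand setting and which annotation, was not given in the sources used here, so reads of a gene and of an overlapping one on the opposite strand cannot be told apart. The authors deposited raw counts of each gene in each library, per the file headers. The authors' tables add a score, the negative log10 of an adjusted p scaled by 10, and a variance-corrected log2 ratio against the control, per the file headers, and of these values only the log2 ratio is quoted. The control column is shared by the tables, which were joined by gene identifier into 32312 genes, 5723 of them with no read.

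Genes kept by filterByExpr (minimum count 10, minimum total 15) numbered 19835. The smallest group, the control, has 1 library, so about 10 counts in any 1 of the libraries met the minimum count. Genes could thus be kept through the control or P2 alone. With P3 and P1 libraries alone 18463 genes were kept. With edgeR 4.0.16 (R 4.3.3, limma 3.58.1) and TMM factors, all 9 libraries entered 1 robust quasi-likelihood model of 4 groups, with 5 residual degrees of freedom and a common biological coefficient of variation of 0.0565. P3 minus P1 was tested two-sided with Benjamini-Hochberg adjustment at 0.05. CPM are counts scaled to a common library total after TMM correction, and the standard error is the fold change divided by the root of F. Counts of 19444 genes were simulated for P3 against P1, with only a small random sample of the genes changed. Of genes changed 1.5-fold 62.7% were called, of those changed 2-fold 79.1% and of those changed 4-fold 97%. Besides these, 28 unchanged genes were called, few beside 19444 genes but not beside the calls made in the simulation. False calls thus made up more than a share of 0.05 of all calls in the simulation. The adjusted p may therefore understate the false calls in these data. Same-numbered P3 and P1 libraries did not deviate together (correlations -0.107, -0.0722 and 0.018), so no pairing was assumed.

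The 41 gene lists (2905 entries, 397 of them unmatched) and the comparison were chosen with earlier results of these data known, and lists are described by counts beside all tested genes. Named by rule were the 12 largest rises and 12 largest falls that passed, had an assigned symbol, reached a mean of 5 CPM in either group and did not overlap, up to 4 members of each list with the smallest p, and in any case and2, myod1, shha, sox10, the CYP1 genes cyp1a, cyp1b1, cyp1c1 and cyp1c2, per2, mdm2, mt2, hsp70l and hmox1. Other genes were picked after their values were seen. Alternatives were RLE factors, library totals, no filter, 1 CPM in 2 libraries, a minimum 2-fold change, P3 and P1 alone with and without a replicate block, DESeq2 1.42.0 and each replicate left out.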

Additional observations from a re-analysis of the deposited data

Results flagged for a closer look

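Only the 278 genes named or tabulated, many of them picked after their values were seen, were screened here. For some of them every P3 library lay on one side of the single control library and every P1 library on the other, with at least a 1.5-fold difference that passed between the outcomes. How many of all tested genes do so was not counted. With 1 control library the position of the control itself carries no error, and the split around it was not tested. The log2 fold changes of P3 over P1 were 1.69 for lgals2b, 1.63 for cyp11a1, 1.39 for adora2ab, 0.96 for txnipb, 0.88 for serpina1l, 0.85 for the linker histone gene h1fx, 0.82 for kdr, 0.75 for slc39a5 and 0.6 for sesn3, all with P3 above the control and P1 below it. The same held for tnfb (2.47), nfkbiaa (0.73), pdzk1 (0.65), slc9a3.1 (0.9), PPP1R15B (0.63), the urate oxidase gene uox (0.79) and the vitamin B12 uptake gene AMN (0.95). With P3 below the control and P1 above it were apoea (-0.83), ptges3b (-0.74), cyp51 (-0.95), the sterol reductase gene tm7sf2 (-0.79), the posterior hox gene hoxd13a (-0.69) and the actinodin gene and4 (-0.88). For AMN, uox, tm7sf2, hoxd13a and and4 the call between P3 and P1 was not made by DESeq2 and was lost without at least 1 library, P1 replicate 0 in each case. Reads of tnfb in P1 were 4, 4 and 3, and those of and4 in P3 18, 14 and 14, so these values rest on few reads.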

How the results depend on the processing

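Of 278 genes named or tabulated, some defining markers not among them, 266 were called and none reversed under any alternative. Of the called genes, 195 kept the call with every single replicate left out. Under every alternative but the 2-fold minimum 188 kept it. Against 2182 calls (1244 higher, 938 lower), the minimum 2-fold change gave 12 (11 and 1) and DESeq2 1263 (733 and 530). Leaving out 1 replicate gave 1441 to 2233 calls, 860 to 1249 of them higher and 581 to 984 lower. With P3 and P1 alone and the replicate number as a block there were 1179 calls (764 and 415), against 1814 without the block. The replicate numbers are not shown to pair libraries, since of the P3 and P1 libraries only P1 replicate 2 correlated best with its own number (0.018). RLE factors (2197), library totals alone (2147), no filter (2530) and 1 CPM in 2 libraries (2172) moved the total by less than 1.5 times. The control has 1 library, and genes under about 1 CPM rest on few reads. Causes of these shifts were not tested.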

Other observations

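Genes of purine synthesis and some with very small p were not described above. No list of purine synthesis genes was made, so no share of called members can be given and the path as a whole was not tested. Of the 3 genes shown, all higher in P3, gart and paics were named as members of the pigment cell list. The gene pfas was picked after its values were seen. It encodes an enzyme of the de novo path and had 272, 253 and 243 CPM in P3, 153, 161 and 156 CPM in P1 and 151 CPM in the control (0.71 ± 0.05, edgeR adjusted p = 1.52e-09). Of the same path, gart had 156, 142 and 144 CPM in P3, 104, 98.6 and 98.8 CPM in P1 and 106.5 CPM in the control (0.55 ± 0.05) and paics 861, 769 and 829 CPM in P3, 608, 604 and 619 CPM in P1 and 601 CPM in the control (0.43 ± 0.05). The P1 libraries of all 3 genes lay near the control and the P3 libraries above.

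A few further genes, transporter genes among them, were picked after their values were seen, for their small p. The amino acid transporter gene slc43a2b had 707, 693.5 and 697 CPM in P3, 404, 372 and 410.1 CPM in P1 and 377 CPM in the control (0.82 ± 0.05, edgeR adjusted p = 9.46e-11). The sulfate transporter gene SLC13A4 had 180, 160.3 and 162 CPM in P3, 81, 80.6 and 82.1 CPM in P1 and 58 CPM in the control (1.04 ± 0.05, edgeR adjusted p = 3.22e-12). A further monocarboxylate transporter family gene, slc16a9b, had 70.5, 64.9 and 68.6 CPM in P3, 40.5, 43.7 and 44.7 CPM in P1 and 4.51 CPM in the control (0.66 ± 0.06), so both outcomes lay far above the control for it. The linker histone gene histh1l had 253, 226 and 246 CPM in P3, 158, 146 and 157 CPM in P1 and 244.5 CPM in the control (0.65 ± 0.05), with P1 below the control and P3 at its level. The vault protein gene mvp had 309, 282 and 288 CPM in P3, 189, 182.5 and 185 CPM in P1 and 146 CPM in the control (0.66 ± 0.05).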
